A study of Mus musculus with 4 samples.

Results

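Tumor-associated macrophages (TAMs) present antigen to T cells together with surface proteins that raise or lower the T cell response, and carry receptors that decide whether a target cell is engulfed. The transcripts of 10 such proteins were followed in TAMs from control and propranolol treated mice: the PD-1 ligands Cd274 (PD-L1) and Pdcd1lg2 (PD-L2), the B7 ligands Cd80, Cd86 and Icosl, the receptor Cd40, the inhibitory ligands Vsir (VISTA) and Lgals9 (galectin-9), and the phagocytosis checkpoint Sirpa with its ligand Cd47. The members were listed by gene symbol and found through their Ensembl identifiers among the 54146 genes of the count table, and the rule itself uses no measured value. All 10 were found and all 10 passed the filter on low counts, as did 14688 genes in all.

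PD-L1 and PD-L2 bind PD-1 on T cells and restrain them. CD80 and CD86 bind CD28, which costimulates T cells, and CTLA4, which competes with CD28 for the same ligands. ICOSL engages ICOS, and CD40 receives the CD40 ligand of helper T cells and licenses the antigen-presenting cell. VISTA and galectin-9 are counted among the inhibitory ligands, galectin-9 as a partner of TIM-3 (Havcr2). CD47 is displayed by nearly all cells, and SIRPα on macrophages reads it and blocks engulfment, the signal often called don't eat me. Interferon-gamma is a known inducer of PD-L1 in macrophages.

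The 4 libraries were made from poly-adenylated RNA of live CD11b+F4/80+ cells, sorted by FACS from subcutaneous MCA205 tumors, a mouse fibrosarcoma line, after enrichment for CD45. The hosts were female immune competent C57BL/6 mice between 8 and 16 weeks of age. A pair of libraries, labelled vehicle, came from control mice, and the other pair from mice given propranolol, a nonselective blocker of beta-adrenergic receptors, at 0.5 g/L in the drinking water from the day of inoculation. The study calls the pairs biological replicates, but the sources used here do not say how many mice went into a library, so the p-values measure the spread between these libraries. The totals were 13798249 and 23018142 counts in control replicates 1 and 2, and 39818103 and 16424081 in propranolol replicates 1 and 2, so that 1 CPM (1 of 1000000 counts of the library, its size scaled by TMM) stood for between 14.8 and 36.4 counts. In bulk RNA of sorted cells, fewer cells of a type and less RNA per cell cannot be told apart.

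The label was first checked against marker genes. The 12 macrophage markers were all detected and summed to 23380 and 22390 CPM in control replicates 1 and 2 and to 29400 and 26650 CPM in propranolol replicates 1 and 2. Lyz2, which encodes lysozyme, was the most abundant, at 5226 to 7569 CPM. Markers of other cells were present at lower levels and differed between the groups. The 11 T cell markers, led by Cd8a, summed to 250.2 and 289 CPM in control TAMs and to 126.5 and 72.1 CPM after propranolol. The 7 NK cell markers, led by Nkg7, summed to 100.4 and 104 CPM and to 32.1 and 17.7 CPM in the same order. Fibroblast and sarcoma cell markers, led by the collagen genes Col3a1 in control TAMs and Col1a1 after propranolol, summed to 2797 CPM in control replicate 1, to 1102 CPM in control replicate 2, and to 657 and 691 CPM after propranolol, so that control replicate 1 stood apart within its group. These values are taken up again beside the genes they bear on, and their part in the results was not tested.

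Of the 10 transcripts, only Cd47 was changed, by the rule of an adjusted p under 0.05 in the edgeR quasi-likelihood test and a change of more than 1.5-fold. Over all tested genes 4084 were changed by this rule (27.8%), with 1798 higher (12.2%) and 2286 lower (15.6%) after propranolol, against 0 higher and 1 lower of the 10. Cd86, Vsir and Lgals9 passed the adjusted p but not the fold, which made 4 of 10 with Cd47, against 42.2% of all tested genes past the adjusted p. For 7 of the 10 the control and propranolol libraries did not overlap, as for 72.6% of all tested genes. The median log2 fold change was -0.06 over the 10 and -0.02 over all tested genes. Each of these shares of the 10 was below that of all tested genes.

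The members stood at very different levels. Per kilobase of exon, Sirpa was the most abundant of the 10 in every library, at 261 CPM per kilobase in both control libraries and at 308 and 298 CPM per kilobase after propranolol. Vsir and Lgals9 followed, with means of 119 and 93.8 CPM per kilobase in control TAMs. Cd80 was the least abundant, with a mean of 4.28 CPM per kilobase in control TAMs and 3.83 after propranolol, and Pdcd1lg2 was next to it at 8.87 and 8.15. In control TAMs Cd47 (48.9) was above Cd274 (40.4), whereas after propranolol Cd47 (28.4) was below Cd274 (40.2), and in neither group did the libraries of this pair of genes overlap. Cd86 and Cd40 overlapped in control TAMs. After propranolol Cd47 overlapped with Cd40, and Cd86 with Icosl.

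**Figure D1:**
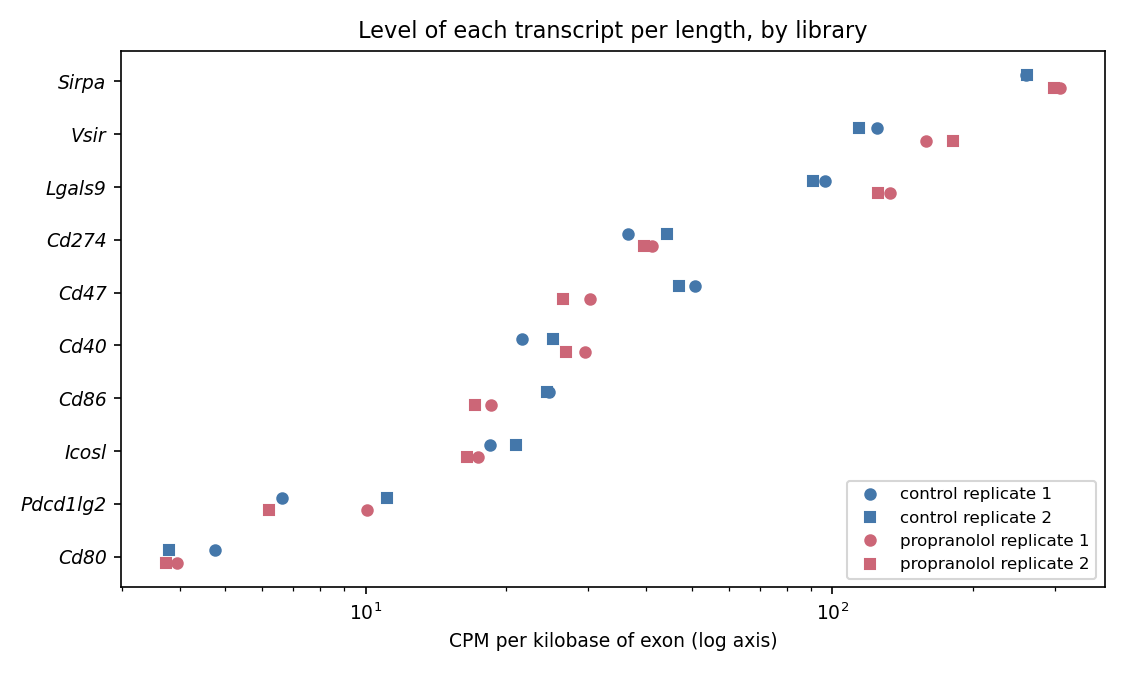
CPM per kilobase of exon (log axis) of the 10 transcripts in each of the 4 libraries, with control in blue, propranolol in red, replicate 1 as circles and replicate 2 as squares. Sirpa lies above Vsir and Lgals9 in every library, Cd80 is lowest, and Cd47 and Cd274 change places between the groups.

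Cd274 (ENSMUSG00000016496.7, GRCm38 chr19:29367455-29388095, plus strand), the transcript of PD-L1, was at 132 and 160.4 CPM in control replicates 1 and 2 and at 149 and 143 CPM in propranolol replicates 1 and 2. Both propranolol libraries fell between the control libraries. The log2 fold change was -0.01 (SE 0.11, 95% interval -0.26 to 0.25, adjusted p = 0.966 from the edgeR test), and the interval stays within a 1.5-fold change in either direction. The direction of so small a value was not fixed, since it was 0.16 without control replicate 2 and 0.05 without propranolol replicate 2, and -0.30 with library sizes set by the summed macrophage markers (adjusted p = 0.101). With offsets for GC content, described further on, Cd274 was higher after propranolol by 0.38 on the log2 scale (SE 0.11, 95% interval 0.13 to 0.63, adjusted p = 0.0359), still short of 1.5-fold. An antisense gene, AC119228.1, covers 14.1% of the exon bases of Cd274, and reads of the 2 strands cannot be told apart without a strand setting.

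Pdcd1lg2 (ENSMUSG00000016498.9, GRCm38 chr19:29410919-29471161, plus strand), the neighbour of Cd274 on chromosome 19, was at 13.0 and 21.8 CPM in control replicates 1 and 2 and at 19.8 and 12.2 CPM in propranolol replicates 1 and 2. The groups overlapped, and the replicates of a group differed more than the groups. The log2 fold change of -0.12 had the widest interval of the 10, from -0.71 to 0.48 (SE 0.27, adjusted p = 0.760). It turned to 0.33 without control replicate 2 and to 0.20 without propranolol replicate 2, and it was -0.37 and -0.52 without control replicate 1 and propranolol replicate 1. For PD-L2 the libraries therefore leave a difference of either sign possible.

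The promoter window of Cd274 is shown because PD-L1 is the best known of these checkpoint ligands, that of Lgals9 because it held the only interferon response element cores among the members with a window, and that of Cd47 because its transcript was the one that changed. The windows span 250 bases before to 50 after a RefSeq transcript start on GRCm38.p6, and 7 of the 10 members had one. They are given 5′ to 3′ on the strand of the gene, and capitals mark a motif match: chr19:29367188-29367487 on the plus strand for Cd274, chr11:78984875-78985174 on the minus strand for Lgals9 and chr16:49855404-49855703 on the plus strand for Cd47.
Cd274: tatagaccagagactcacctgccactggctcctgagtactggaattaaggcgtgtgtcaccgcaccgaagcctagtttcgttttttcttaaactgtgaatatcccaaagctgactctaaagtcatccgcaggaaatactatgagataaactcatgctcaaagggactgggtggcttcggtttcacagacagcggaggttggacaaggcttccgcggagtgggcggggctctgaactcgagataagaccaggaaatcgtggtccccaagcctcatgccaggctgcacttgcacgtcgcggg
Lgals9: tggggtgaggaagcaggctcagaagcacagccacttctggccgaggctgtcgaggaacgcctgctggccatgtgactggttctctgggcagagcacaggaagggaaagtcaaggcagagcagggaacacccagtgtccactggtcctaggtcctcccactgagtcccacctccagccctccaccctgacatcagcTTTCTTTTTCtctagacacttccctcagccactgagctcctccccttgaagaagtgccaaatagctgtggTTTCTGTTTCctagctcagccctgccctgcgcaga
Cd47: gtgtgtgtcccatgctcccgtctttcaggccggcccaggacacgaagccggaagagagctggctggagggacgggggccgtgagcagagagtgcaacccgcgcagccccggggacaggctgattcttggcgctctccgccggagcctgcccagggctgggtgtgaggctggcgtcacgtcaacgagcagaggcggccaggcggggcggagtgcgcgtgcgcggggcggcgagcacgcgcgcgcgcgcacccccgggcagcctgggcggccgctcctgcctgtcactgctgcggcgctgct
The motifs searched on both strands were the interferon-gamma-activated site TTCNNNGAA, the interferon response element core (GAAANN followed by GAAA), the cAMP response element TGACGTCA, the NF-kappaB site, the E-box CACGTG and the TATA box TATAAA. Lgals9 held 2 matches to the interferon response element core, which begin 55 bases before and 15 bases after the start and do not overlap, and 3.44% of all 32851 windows held at least 1. No letters of the other motifs were found in these 3 windows. Pdcd1lg2 and Icosl each held 1 NF-kappaB match (8.46% of all windows) and Cd80 held 1 TATAAA (13.6%), while Vsir held none of the 6 motifs. TTCNNNGAA, TGACGTCA and CACGTG, which 8.30%, 1.79% and 7.15% of all windows held, were in none of the 7. The window of Cd47 had a GC content of 74.0%, against a median of 52.7% over all windows, and it lies inside the annotated gene, which begins upstream of it.

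The CD28 and CTLA4 ligands were read side by side, and the difference between their changes was not tested. Cd86 (ENSMUSG00000022901.13, GRCm38 chr16:36603869-36666081, minus strand) was at 90.6 and 89.7 CPM in control replicates 1 and 2 and at 67.9 and 62.9 CPM in propranolol replicates 1 and 2. Both propranolol libraries lay below both control libraries, with a log2 fold change of -0.46 (SE 0.10, 95% interval -0.69 to -0.23, adjusted p = 0.0056), or 1.38-fold, which is short of the fold threshold. Without control replicate 1 the log2 fold change was -0.40, and with GC offsets it was 0.07 (adjusted p = 0.634). Cd80 (ENSMUSG00000075122.5, GRCm38 chr16:38455561-38496335, plus strand) was at 17.6 and 14.1 CPM in control replicates 1 and 2 and at 14.6 and 13.8 CPM in propranolol replicates 1 and 2. The groups overlapped, and the log2 fold change of -0.15 (SE 0.17, 95% interval -0.54 to 0.24, adjusted p = 0.525) turned to 0.07 without control replicate 1 and to 0.43 with GC offsets (adjusted p = 0.0874). Per kilobase, Cd86 exceeded Cd80 5.21-fold and 6.45-fold in the control libraries and 4.71-fold and 4.60-fold in the propranolol libraries, so that the ratio was lower after propranolol in both.

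Icosl (ENSMUSG00000000732.9, GRCm38 chr10:78069302-78083913, plus strand), which encodes the ligand of ICOS, was at 85.2 and 96.9 CPM in control replicates 1 and 2 and at 80.5 and 76.1 CPM in propranolol replicates 1 and 2. The propranolol libraries were the lower ones without overlap, but the log2 fold change of -0.22 (SE 0.11, 95% interval -0.46 to 0.02, adjusted p = 0.134) did not pass the test. With GC offsets it was -0.39 (adjusted p = 0.0230), again under 1.5-fold. Cd40 (ENSMUSG00000017652.16, GRCm38 chr2:165055627-165072948, plus strand) was at 73.7 and 86.1 CPM in control replicates 1 and 2 and at 101 and 91.5 CPM in propranolol replicates 1 and 2. Here the propranolol libraries were the higher ones, with a log2 fold change of 0.27 (SE 0.11, 95% interval 0.01 to 0.52) and an adjusted p of 0.0870, which was 0.0461 with the replicate block and 0.0246 without a filter on low counts. Without that filter the log2 fold change was 0.34, and the median of all genes was higher by 0.0731. With GC offsets the value was 0.36 (adjusted p = 0.0405), and with library sizes set by the summed macrophage markers it was -0.03.

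Vsir (ENSMUSG00000020101.14, GRCm38 chr10:60346851-60372684, plus strand) was at 626 and 572 CPM in control replicates 1 and 2 and at 796 and 911 CPM in propranolol replicates 1 and 2. The higher control library was still below the lower propranolol library. The log2 fold change of 0.51 (SE 0.10, 95% interval 0.28 to 0.74, adjusted p = 0.00296) equals 1.42-fold, just under the threshold. It was 0.63 without control replicate 1 and 0.61 without propranolol replicate 1, and in both cases Vsir counted as changed. Lgals9 (ENSMUSG00000001123.15, GRCm38 chr11:78962974-78984946, minus strand) was at 206 and 195 CPM in control replicates 1 and 2 and at 284 and 268 CPM in propranolol replicates 1 and 2. It was higher in both propranolol libraries, by 0.46 on the log2 scale (SE 0.10, 95% interval 0.25 to 0.67, adjusted p = 0.00379), or 1.38-fold. With GC offsets Lgals9 kept an adjusted p of 0.0352 at a log2 fold change of 0.33, and Vsir had 0.26 at an adjusted p of 0.0990. With library sizes set by the summed macrophage markers neither passed the adjusted p, with 0.23 for Vsir (adjusted p = 0.171) and 0.17 for Lgals9 (adjusted p = 0.219).

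Sirpa (ENSMUSG00000037902.18, GRCm38 chr2:129592835-129632228, plus strand) was at 1281 and 1282 CPM in control replicates 1 and 2 and at 1511 and 1464 CPM in propranolol replicates 1 and 2. Both propranolol libraries were above both control libraries, with a log2 fold change of 0.22 (SE 0.08, 95% interval 0.03 to 0.40, adjusted p = 0.0629) that did not pass the test. At the same size it passed the adjusted p with the replicate block (0.0240) and with limma-voom (0.0473), and at 0.29 it passed without a filter (0.00893), where the median of all genes was higher by 0.0731. The log2 fold change was -0.05 with GC offsets and -0.08 with library sizes from the macrophage markers. Cd47 (ENSMUSG00000055447.19, GRCm38 chr16:49800533-49915010, plus strand) was at 319 and 295 CPM in control replicates 1 and 2 and at 189.9 and 166.5 CPM in propranolol replicates 1 and 2. It fell in both, by 0.78 on the log2 scale (SE 0.10, 95% interval -1.02 to -0.55, adjusted p = 0.000404), which is 1.72-fold lower. Relative to its partner, Sirpa per kilobase was 5.13 and 5.56 times Cd47 in control replicates 1 and 2 and 10.2 and 11.2 times Cd47 in propranolol replicates 1 and 2. The ratio was thus higher in both propranolol libraries, with the change of Cd47 past the test and that of Sirpa on either side of it by the way of testing. With GC offsets the log2 fold changes of Sirpa and Cd47 were close, at -0.05 and -0.16, so the gap between them was mostly gone.

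Limits of the Cd47 call came from the threshold and from GC content. When edgeR tested against 1.5-fold itself (glmTreat), the adjusted p of Cd47 was 0.103. With GC offsets the log2 fold change was -0.16 (SE 0.09, 95% interval -0.37 to 0.05, adjusted p = 0.252).

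**Figure D2:**
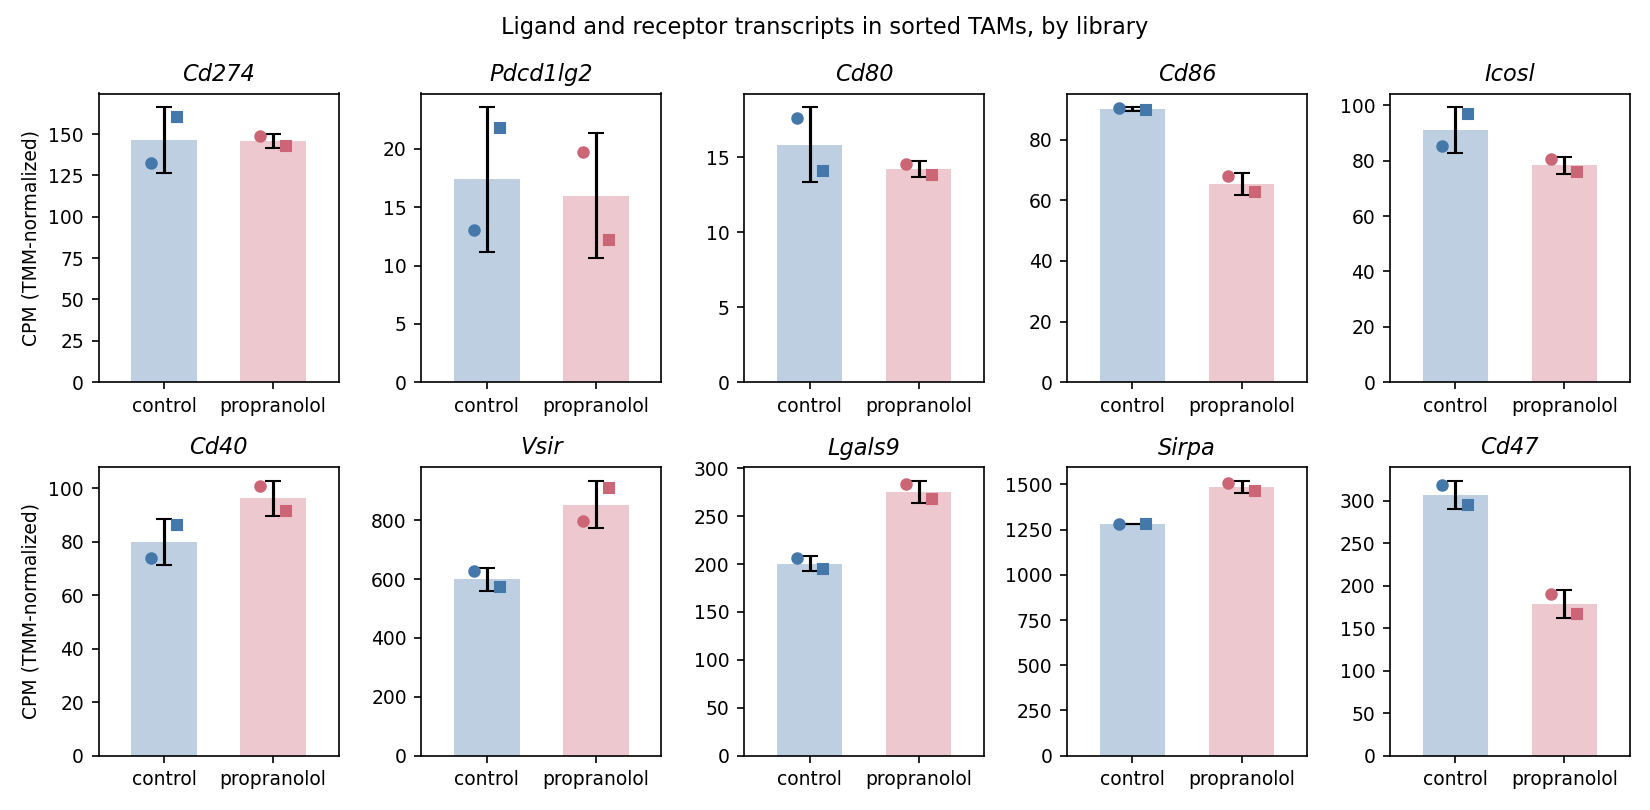
TMM-normalized CPM of the 10 transcripts in control (blue) and propranolol (red) TAMs, each panel with its own axis from 0. Bars are means of 2 libraries, error bars the SD, circles replicate 1 and squares replicate 2; the groups overlap for Cd274, Pdcd1lg2 and Cd80, and Cd47 shows the widest gap relative to its level.

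The results depended on the GC content of the transcripts. Of the 6 members below the median of 49.6% of the tested genes, Cd47 (42.2% GC), Cd80 (42.7%), Cd86 (43.2%), Cd274 (44.9%) and Pdcd1lg2 (49.5%) had log2 fold changes below 0 and Cd40 (48.8%) one above 0. Of the 4 above it, Lgals9 (51.8%), Vsir (54.0%) and Sirpa (54.2%) had log2 fold changes above 0 and Icosl (52.5%) one below 0. Offsets that take out how each library's counts vary with GC content raised the log2 fold change of those 6 and lowered that of these 4. In that fit 0 of the 10 were changed, against 1855 of all tested genes (12.6%), of which 60.5% were higher, and the median over all genes shifted by 0.11. At an adjusted p under 0.05 without the fold threshold, 4 of the 10 passed it (Cd274, Cd40 and Lgals9 higher, Icosl lower), against 24.1% of all tested genes. Lgals9 alone passed the adjusted p in both fits. By an unadjusted p below 0.05, Cd80 and Vsir passed the GC fit as well. Where the trend with GC content comes from was not tested.

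**Figure D3:**
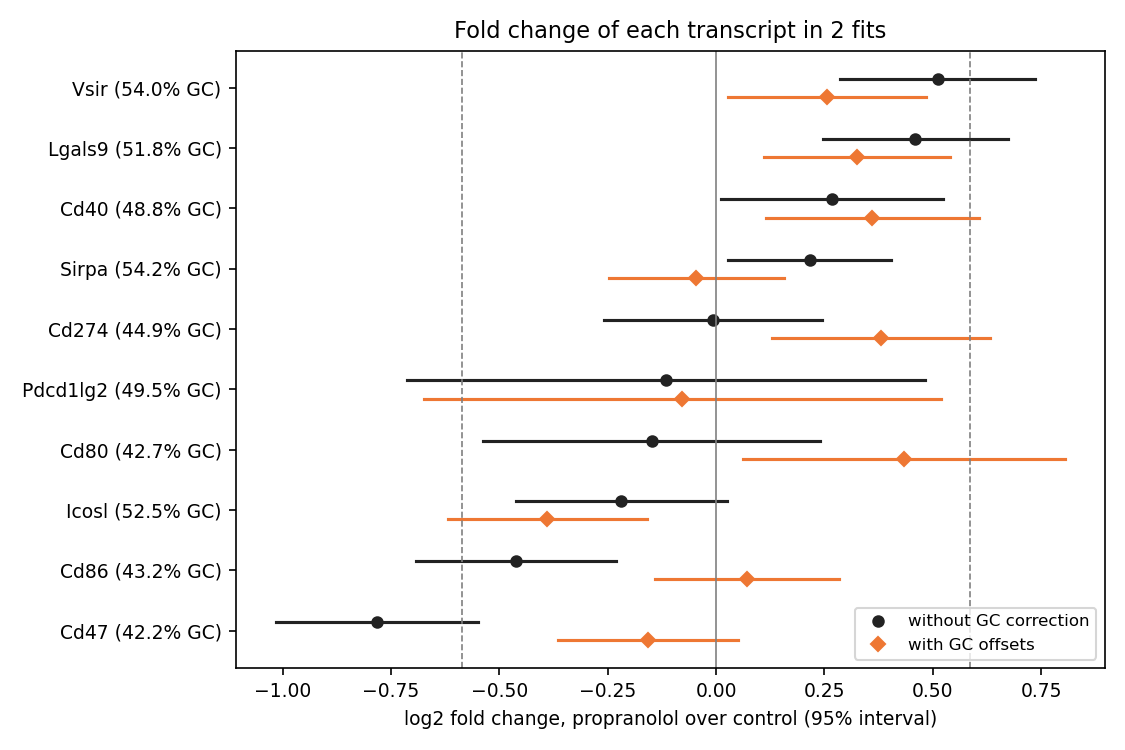
Log2 fold change, propranolol over control, of the 10 transcripts with 95% intervals, without (black circles) and with (orange diamonds) offsets for GC content, the GC content of each in brackets and dashed lines at 1.5-fold. The point of Cd47 is the only one past a dashed line without offsets, no point is with offsets, and Cd274, Cd80, Cd86 and Sirpa change sides of 0.

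Each transcript was also set against the macrophage markers of its own library. Per 100000 counts of the 12 macrophage markers, Cd47 had 1363 and 1317 counts in control replicates 1 and 2 and 646 and 625 counts in propranolol replicates 1 and 2. Cd86 had 387 and 401 counts in control TAMs and 231 and 236 counts after propranolol. Both were thus lower in relation to the macrophage transcripts. Cd274 had 566 and 716 counts in control TAMs and 505.5 and 536 counts after propranolol, while Sirpa overlapped between the groups at 5476 and 5726 against 5141 and 5493 counts. With library sizes set by these markers 2 of the 10 were changed, Cd47 (log2 fold change -1.08) and Cd86 (-0.76, adjusted p = 0.000898 from edgeR), against 29.1% of all tested genes. By the adjusted p without the fold threshold, 3 of the 10 passed, these and Icosl (-0.51, adjusted p = 0.0105), against 40.2% of all tested genes, and Vsir and Lgals9 did not. Only 10.6% of the changed genes were higher, against 44.0% under TMM scaling, as this scaling moved the median of all genes by -0.29.

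**Figure D4:**
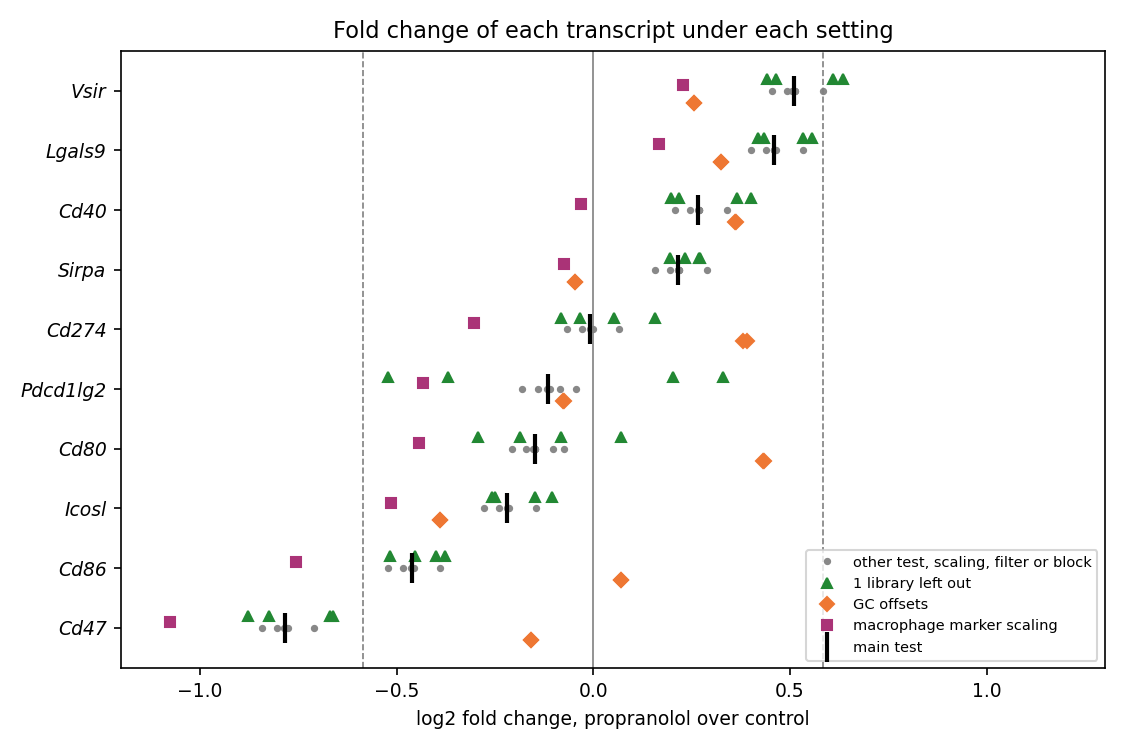
Log2 fold change, propranolol over control, of the 10 transcripts under each way of processing: black bars for the main test, grey dots for other tests, scalings, filters or the replicate block, green triangles with 1 library left out, orange diamonds with GC offsets and purple squares with library sizes from the macrophage markers. Cd47 stays below 0 throughout, from -1.08 to -0.16, Vsir and Lgals9 stay above 0, and Pdcd1lg2 spreads on both sides when a library is left out.

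The receptors that T and NK cells use for these ligands were read from the same libraries. Of 6 tested, 4 fell and 0 rose. For this and the lists below, the shares over all tested genes were 15.6% lower and 12.2% higher, and 12.6% changed with GC offsets. Cd28, the costimulatory receptor for CD80 and CD86, was at 8.09 and 8.17 CPM in control replicates 1 and 2 and at 2.59 and 1.51 CPM in propranolol replicates 1 and 2, a log2 fold change of -1.94 (SE 0.32, adjusted p = 0.00107). Pdcd1, which encodes PD-1, was at 30.1 and 33.2 CPM against 17.2 and 8.06 CPM, with -1.29 (SE 0.27, adjusted p = 0.00384). Icos fell by 1.73 and Ctla4 by 1.10 on the log2 scale. All 4 were lower in both propranolol libraries, and with GC offsets Cd28, Icos and Pdcd1 were still changed, whereas Ctla4 was not (-0.52, adjusted p = 0.126). Havcr2 (TIM-3), which macrophages also express, had a log2 fold change of -0.49 (adjusted p = 0.00473) and Selplg (PSGL-1), a VISTA partner on leukocytes, one of 0.43 (adjusted p = 0.00618), both under 1.5-fold. Cd40lg had 1 to 3 counts in each library and was not tested.

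Most markers of T and NK cells fell beside these receptors. Of 11 T cell markers 9 fell and 0 rose, with a median log2 fold change of -1.43. Themis fell by 3.27, Cd3g by 2.08, Cd8b1 by 1.86 and Cd8a by 1.84, and Cd8a, the most abundant, went from 71.0 and 86.8 CPM to 29.4 and 13.4 CPM. Cd4 was at 13.2 and 13.4 CPM in control TAMs and at 16.2 and 17.0 CPM after propranolol, with a log2 fold change of 0.32 that did not pass the test (adjusted p = 0.138). All 7 NK cell markers fell, among them Klrd1 by 3.24, Klra8 by 2.49, Gzma by 1.89 and Nkg7 by 1.85, with a median of -1.85. With GC offsets 9 T cell and 5 NK cell markers were lower. No marker of either list was at 0 counts, and the sort for CD11b and F4/80 is meant to leave T cells out. Whether the 4 receptors were lower because of these cells was not tested.

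Other cells that carry B7 ligands differed as well. Of 12 dendritic cell markers 5 fell and 0 rose (median -0.83), with Clec9a at -1.52, Xcr1 at -1.30, Dpp4 at -1.26 and Cd209a at -1.02, and with Fscn1 the most abundant. The list summed to 127 and 112 CPM in control replicates 1 and 2 and to 76.7 and 66.0 CPM in propranolol replicates 1 and 2. With GC offsets 3 genes were lower, Fscn1, Clec9a and Cacnb3, the last not among the 5. Xcr1 (-0.67), Dpp4 (-0.63) and Cd209a (-0.59) were not changed in that fit. Without GC offsets the gap of the list was in the same direction as that of Cd86, and its part in that value was not tested. With GC offsets the median of the list was -0.76, whereas Cd86 was at 0.07. Of 7 fibroblast and sarcoma cell markers 6 fell, Dcn by 2.06, Col3a1 by 1.97, Fap by 1.54 and Col1a1 by 1.29, but only 3 without control replicate 1, and 5 were lower with GC offsets. In that GC fit Dcn (-0.87) and Fap (-0.64) were not changed, and Pdgfrb (-1.06), not among the 6, was. In the opposite direction, 4 of 6 tested neutrophil markers rose (median 1.05), S100a9 by 2.04, S100a8 by 1.33, Cxcr2 by 1.31 and Retnlg by 0.79. The neutrophil list, led by Csf3r, summed to 148 and 181 CPM in control TAMs and to 309 and 325 CPM after propranolol. The defining neutrophil markers Ly6g and Camp had 0 counts in control replicate 1 and at most 17 elsewhere. The B cell markers were too few to describe (Cd79b rose by 0.78 and Ms4a1 fell by 2.67, the latter no longer changed when any library was left out), and of 6 endothelial markers Cdh5 rose by 0.77, with 0 changed without control replicate 2 and Pecam1 the most abundant. Among the 12 macrophage markers Cd14 rose by 0.68 and Csf1r by 0.59 (median 0.31 over the list), and 4 rose without propranolol replicate 2. With GC offsets Cd79b (0.52), Ms4a1 (-1.90), Cdh5 (0.61), Cd14 (0.50) and Csf1r (0.32) were not changed. Mrc1, the mannose receptor, was the one macrophage marker higher in that fit (0.85).

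**Figure D5:**
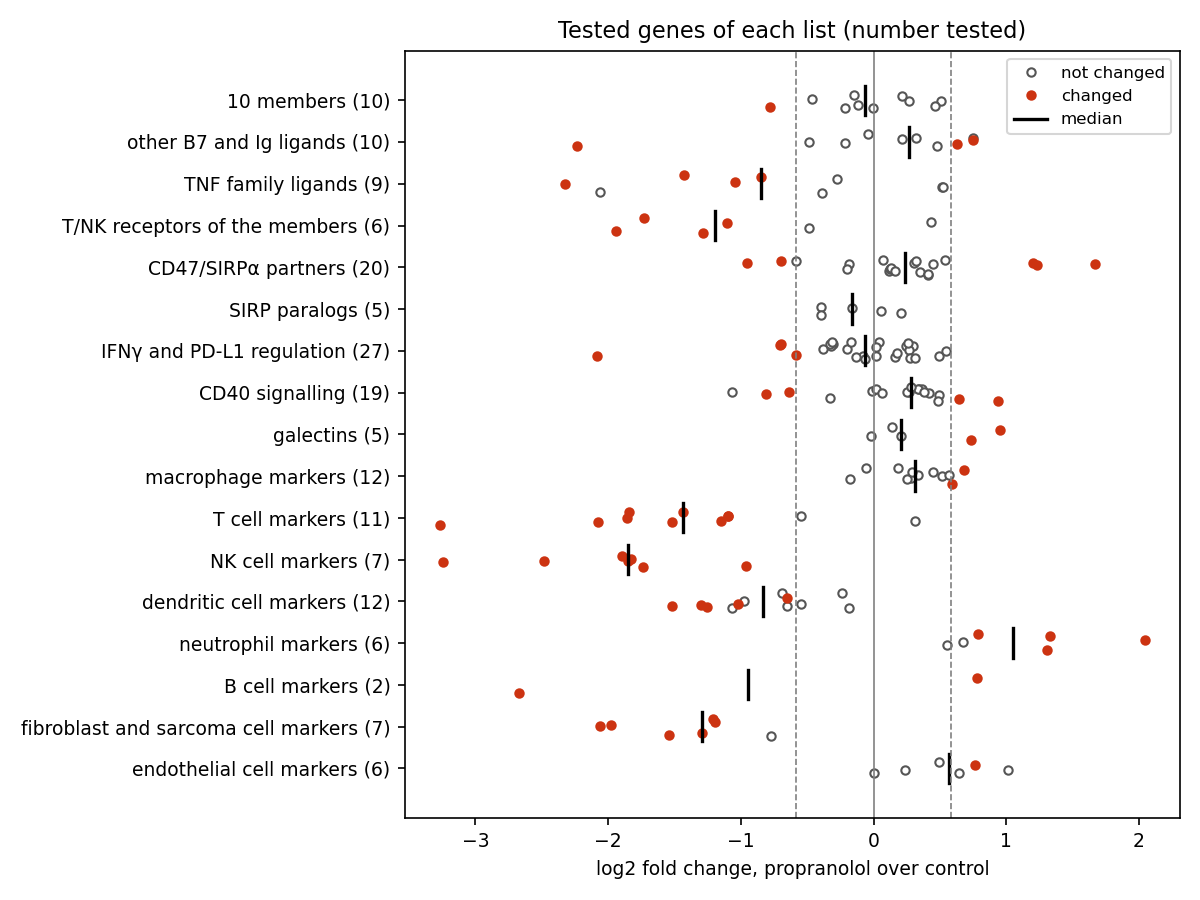
Log2 fold change, propranolol over control, of each tested gene of the 10 members and 16 gene lists, with the number tested in brackets, changed genes in red, others open, medians as bars and dashed lines at 1.5-fold. The members lie around 0, while the T cell, NK cell and fibroblast markers lie mostly below -1 and the neutrophil markers above 0.

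Relatives of the members were read from the same fit. Of 10 tested B7 and immunoglobulin superfamily ligands 2 rose and 1 fell, with a median of 0.26. Both counts were near the shares over all tested genes, 12.2% higher and 15.6% lower. Cd276 (B7-H3) rose by 0.75 and Icam1, the adhesion ligand of LFA-1 and the most abundant of the list, by 0.63, from 159 and 167 CPM to 256.5 and 248 CPM. Btla, an inhibitory receptor of lymphocytes, fell by 2.23 at only 0.44 to 2.23 CPM. Vtcn1 had 0 counts in every library. With GC offsets these 3 were no longer changed and 1 other gene of the list, Cd200r1, was higher.

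Of 9 tested TNF family ligands of antigen-presenting cells, 4 fell and 0 rose (median -0.85): the death ligands Fasl by 2.32 and Tnfsf10 (TRAIL) by 1.43, Tnfsf13 (APRIL) by 1.05 and Tnfsf8 (CD30 ligand) by 0.85. Tnfsf10 was at 26.3 and 23.6 CPM in control replicates 1 and 2 and at 10.3 and 7.92 CPM in propranolol replicates 1 and 2, with an adjusted p of 0.000292. Fasl, which cytotoxic lymphocytes express, was at 3.51 and 4.58 CPM in control TAMs and at 0.96 and 0.59 CPM after propranolol. The T and NK cell markers were lower as well, and a link between them and Fasl was not tested. Tnfsf13b (BAFF), the most abundant, had a log2 fold change of -0.39 (adjusted p = 0.0541). With GC offsets Fasl, Tnfsf10 and Tnfsf13 stayed lower, and the median over the list was -0.27.

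Of 20 tested genes for partners of CD47 and SIRPα and other receptors of phagocytosis, 3 rose and 2 fell (median 0.23). Over all tested genes 12.2% were higher and 15.6% lower, so both counts were near that background. Thbs1, which encodes the CD47-binding matrix protein thrombospondin-1, was at 464 and 374 CPM in control replicates 1 and 2 and at 1094 and 1572 CPM in propranolol replicates 1 and 2, a log2 fold change of 1.67 (SE 0.16, adjusted p = 0.000125). Lrp1, the scavenger receptor for calreticulin on engulfed cells and the most abundant of the list, rose by 1.23, and Siglec1, a sialic acid receptor of macrophages, by 1.20. All 3 were higher in both propranolol libraries and also with GC offsets (1.68, 0.89 and 0.87). In that fit 6 genes of the list were higher and 0 lower, beside 12.6% of all tested genes changed in either direction. Clec12a, an inhibitory lectin receptor, fell by 0.96 (-0.22 with GC offsets). Fcgr2b, Skap2 and Cd24a joined the higher genes with GC offsets only. Skap2 changed direction between the fits, from -0.20 without offsets to 1.09 with them, whereas Fcgr2b (0.31) and Cd24a (0.45) were above 0 without offsets too.

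Of the 5 SIRP paralogs, 0 were changed (median -0.16), and 1 at an unadjusted p below 0.05 (Sirpb1b). With GC offsets the median turned to 0.52 and 1 paralog was higher, Sirpb1c, while Sirpb1b turned from -0.40 to 0.53. Sirpb1c, the most abundant, was at 61.6 and 59.5 CPM in control replicates 1 and 2 and at 77.3 and 61.6 CPM in propranolol replicates 1 and 2, and had a log2 fold change of 0.20 (adjusted p = 0.228) that became 1.14 with GC offsets (39.4% GC). These genes are near copies of each other and reads were filtered on mapping quality, so reads that match several of them may be missing from these counts. Of 5 tested genes in the list of galectins, 4 of them galectins proper, 2 rose (median 0.21). Lgals1 was at 579 and 528.5 CPM in control replicates 1 and 2 and at 1137 and 1010.0 CPM in propranolol replicates 1 and 2 (log2 fold change 0.96, adjusted p = 0.000147), and Lgals3bp, which encodes a galectin-3 binding protein, rose by 0.73. Lgals1 was the only galectin proper among these to rise, and was also changed with GC offsets (0.67), whereas Lgals3bp was not (0.42).

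The regulators of these ligands were followed in 2 lists. Of 27 genes of interferon-gamma signalling and PD-L1 regulation 4 fell and 0 rose, beside 15.6% lower and 12.2% higher over all tested genes, with a median of -0.06. The share that fell was near that background. Ifng itself was at 8.83 and 7.97 CPM in control replicates 1 and 2 and at 2.67 and 1.05 CPM in propranolol replicates 1 and 2, a fall of 2.09 on the log2 scale (SE 0.38, adjusted p = 0.00191), and it was lower with GC offsets too (-1.59). It is a product of T and NK cells, whose markers fell in the same libraries. Whether Ifng was lower because of these cells was not tested. Hif1a fell by 0.71, Jak2 by 0.69 and Csnk2a1, a casein kinase subunit, by 0.59. With GC offsets these 3 were not changed (0.01, -0.26 and -0.13) and 3 genes of the list were higher, Cop1 by 0.99, Nfkb1 by 0.65 and Stt3a by 0.64. Without offsets Cop1 was at -0.31, Stt3a at -0.17 and Nfkb1 at 0.27, so Cop1 and Stt3a changed direction between the fits. Without GC offsets the count of lower genes was 1 without propranolol replicate 2 and 2 without control replicate 1. Irf8, a transcription factor of macrophages, had the highest mean over the 4 libraries, with Socs3 above it in control replicate 2, and had a log2 fold change of 0.30 (adjusted p = 0.0241), under 1.5-fold.

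In the list of CD40 signalling 2 of 19 genes rose and 2 fell, both below the shares of all tested genes (12.2% and 15.6%), with a median of 0.28. Nfkbia, which encodes the NF-kappaB inhibitor IκBα, was at 150.1 and 165 CPM in control replicates 1 and 2 and at 290.0 and 313 CPM in propranolol replicates 1 and 2 (log2 fold change 0.93, SE 0.10, adjusted p = 0.000169). Map3k14, the kinase NIK of the noncanonical NF-kappaB pathway, rose by 0.65, while Birc2, a ligase that has NIK degraded, fell by 0.81 and the NF-kappaB subunit Rel by 0.64. Nfkb1, the most abundant, had a log2 fold change of 0.27 (adjusted p = 0.0614). With GC offsets Nfkbia (0.74) stayed higher and Nfkb1 (0.65) and Traf5 (1.26) joined it, and 0 genes were lower. Without control replicate 2 the counts were 4 higher and 1 lower, and without control replicate 1 they were 2 higher and 3 lower.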

How the data were processed

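The values are raw counts of fragments per gene, deposited by the authors as whole numbers without normalization, 1 column for each of the 4 libraries. Per the labels and the methods, reads were aligned by the authors with STAR 2.7.1a to mm10, filtered by SAMtools 1.9 on mapping quality, and assigned to exons by featureCounts 1.6.4. The annotation release and a strand setting were not given in the sources used here. The study's DESeq2 results were not used.

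Identifiers were matched to GENCODE release M21 on GRCm38 (54079 of 54146 genes). Libraries were compared in R 4.3.3 with the quasi-likelihood test of edgeR 4.0.16, TMM scaling, filterByExpr at a minimum count of 10 and Benjamini-Hochberg adjustment over the 14688 genes tested; the common dispersion was 0.0172. Changed genes had an adjusted p under 0.05 and differed more than 1.5-fold. Standard errors were derived from the coefficient and its F statistic. GC offsets were fitted per library as natural splines (5 degrees of freedom) on the GC content of the longest transcript. CPM per kilobase used the length of all exons of a gene. As a check for a library deposited more than once, replicates were compared with counting noise (chi-square per degree of freedom 11.7 and 14.9), and none was a repeat of another. With 4 libraries the smallest p of an exact permutation is 0.333. Simulated data were used to check the fits.

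The members and lists were chosen with earlier results of these data known, and lists are described by counts and medians alone. The genes named were the members, all receptors of the T and NK cell list, the 4 changed genes of largest change and the most abundant gene of each other list, markers without counts, and the protein-coding genes within 200 kb of Cd274 or Pdcd1lg2. Cd200r1, Fcgr2b, Skap2, Cd24a, Traf5, Cd4, Socs3, Stt3a, Cop1, Mrc1, Cacnb3, Pdgfrb, A930007I19Rik, Sirpb1b, Ly6g and Camp were named after their values were seen. Alternatives were DESeq2 1.42.0, limma-voom (limma 3.58.1), glmTreat, other scalings and filters, a replicate block, GC offsets, other thresholds and each library left out. Promoter windows are RefSeq's, on GRCm38.p6.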

Additional observations from a re-analysis of the deposited data

How the results depend on the processing

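Cd47 was the changed member under the DESeq2 Wald test, limma-voom, DESeq2 size factors, upper-quartile factors, both other filters, the replicate block and with each library left out, with log2 fold changes from -0.88 to -0.66. The count of changed members was 0 with glmTreat, 0 with GC offsets, 0 with GC offsets and the replicate block, 0 at a log2 fold change above 1.5, 2 with library sizes from the macrophage markers and 4 without a fold threshold, and it ranged from 1 to 2 with 1 library left out. Over all tested genes the count was 1093 with glmTreat, 1855 with GC offsets, 2128 with GC offsets and the replicate block, 728 at a log2 fold change above 1.5 and 6204 without a fold threshold, from 3615 to 4329 with 1 library left out, and 4362 with the replicate block. Of the 1855 genes, 1321 were also changed without GC offsets.

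Directions turned as follows. With GC offsets the log2 fold change was 0.38 for Cd274, 0.43 for Cd80, 0.0706 for Cd86 and -0.0451 for Sirpa, and with the replicate block added 0.39, 0.43, 0.0705 and -0.0458. With library sizes from the macrophage markers it was -0.0302 for Cd40 and -0.0751 for Sirpa. For Cd274 it was 0.0651 without a filter and 0.0005 with the replicate block, and from -0.0816 to 0.16 with 1 library left out. In the same way it ranged from -0.29 to 0.0711 for Cd80 and from -0.52 to 0.33 for Pdcd1lg2. Icosl, Vsir, Lgals9 and Cd47 kept their direction in all 15 alternatives. The cause of these changes was not tested.

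The replicate numbers are shared by the groups but the labels tie them to no batch. Across 14688 genes the replicate 1 minus replicate 2 differences of the groups correlated at 0.17, which cannot decide whether the replicates were paired. The replicate block left Cd47 as the one changed member, but by the adjusted p alone Cd40 (0.0461) and Sirpa (0.0240) passed with it, and Vsir (0.0429) with GC offsets and the block. With 1 library left out, the spread of its group was taken from the other group. The members with the fewest counts, Pdcd1lg2 and Cd80, had 186 to 719 a library.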

Other observations

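Cd274 and Pdcd1lg2 lie side by side on chromosome 19, and their protein-coding neighbours within 200 kb were read in the same fit. Jak2 (ENSMUSG00000024789.12, GRCm38 chr19:29251828-29313080), the kinase of the interferon-gamma receptor, was at 91.7 and 92.6 CPM in control replicates 1 and 2 and at 61.5 and 52.0 CPM in propranolol replicates 1 and 2. It fell by 0.69 on the log2 scale (SE 0.11, adjusted p = 0.00113 from edgeR), and was at -0.26 with GC offsets (adjusted p = 0.0989). Insl6, a relaxin family hormone gene, was at 2.79 and 3.10 CPM in control TAMs and at 1.65 and 1.83 CPM after propranolol, with a log2 fold change of -0.76 that did not pass the test (adjusted p = 0.138). Plgrkt, a plasminogen receptor gene that lies head to head with Cd274 on the other strand, had a log2 fold change of -0.23 (adjusted p = 0.160), Ric1 one of -0.29 (adjusted p = 0.0866) and Ermp1 one of -0.23 (adjusted p = 0.128).

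All 5 tested protein-coding neighbours were thus lower in both propranolol libraries without overlap, as were 36.9% of all tested genes, and 1 of them passed the test, while for Cd274 and Pdcd1lg2 the groups overlapped. With GC offsets Insl6 was at -0.70, Plgrkt, Ric1 and Ermp1 were at 0.25, 0.05 and 0.15, and Cd274 at 0.38. A930007I19Rik, an antisense gene that overlaps the span of Pdcd1lg2, had a log2 fold change of 0.40 (adjusted p = 0.443) with overlapping groups. Rln1 had 0 counts in every library. Over all tested genes 27.8% were changed without GC offsets, beside 1 of these 5.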
